A study of Mus musculus with 4 samples.

Results

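The genes described here encode the mitogen-activated protein kinase (MAP kinase) cascade and its feedback inhibitors in primary mouse cardiac fibroblasts given TGFbeta. They were taken by symbol: all numbered Mapk, Map2k and Map3k genes, Map4k1 to Map4k5, the numbered dual-specificity phosphatase (Dusp) genes, the Sprouty genes Spry1 to Spry4 and the Spred genes. This gave 74 of the 33641 genes in the series, 43 of them kinases and 31 phosphatases, Sproutys or Spreds. The libraries came from fibroblasts isolated from wild-type C57BL/6J mice of 12 weeks. TGFbeta at 10 ng/ml was given to 2 of them and vehicle to the other 2. Both groups received the crosslinkable uridine analogue 4-thiouridine, 20 h and again 4 h ahead of crosslinking with 368 nm light. The design text describes RNA eluted from the RNA-binding protein HuR, whereas the sample labels describe total RNA, of which 1 ug entered each library. All values are therefore given as levels of transcripts in these libraries. The labels do not name the form of TGFbeta, the time it was given for, or whether the 2 replicates were separate cultures or animals, so p-values measure only the spread between these samples.

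In this cascade a MAP3K, itself often activated by a MAP4K or a small GTPase, activates a MAP2K, which phosphorylates a MAP kinase on a threonine and a tyrosine. ERK kinases mainly carry growth factor signals, while JNK and p38 kinases mainly carry stress and cytokine signals, and the MAP3K TAK1 links TGF-beta receptors to JNK and p38. Dual-specificity phosphatases remove both phosphates, and Sprouty and Spred proteins hold back the route through Ras to ERK. Many of these inhibitors are transcribed in response to the pathway they restrain, so their transcripts are often read as a record of its recent activity.

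The libraries were checked against markers of heart cell types. The 7 fibroblast markers summed to 10900 and 8813 TPM (a transcript abundance scaled for gene length and to a fixed total per library) with TGFbeta, against 8093 and 6475 TPM with vehicle. The higher sum came from the collagen genes. Col1a1 had 6221 and 4272 TPM with TGFbeta and 3148 and 2392 TPM with vehicle, and was not called (limma adjusted p = 0.0958). The median log2 change of the 7 was -0.25. Among them Pdgfra and Tcf21, which mark resident fibroblasts, fell. Pdgfra had 55.5 and 57.8 TPM with TGFbeta and 169 and 139 TPM with vehicle. The 6 cardiomyocyte markers summed to 44.1 and 47.1 TPM with TGFbeta and 63.7 and 101 TPM with vehicle, mostly from troponin genes. Tnnt2 was at 35.2 and 34.6 TPM with TGFbeta and at 47.0 and 81.4 TPM with vehicle. Tnni3 was at 7.62 and 10.85 TPM with TGFbeta and at 14.8 and 17.6 TPM with vehicle. Myh6 and Actc1 of that list lay between 0 and 0.394 TPM in all 4 libraries. Markers of endothelium summed to 17.0 to 17.5 TPM with TGFbeta and 19.2 to 23.2 TPM with vehicle. Those of macrophages and leukocytes summed to 15.3 to 15.8 TPM with TGFbeta and 18.1 to 22.9 TPM with vehicle. Those of pericytes and smooth muscle summed to 32.9 to 38.7 TPM with TGFbeta and 21.3 to 23.4 TPM with vehicle, with Rgs5 of that list at 1.95 and 13.5 TPM in the TGFbeta libraries. Those of epicardium and mesothelium summed to 8.95 and 9.32 TPM with TGFbeta and 11.6 and 14.7 TPM with vehicle. The part of these shifts in the results below was not tested. In bulk samples such as these, fewer cells of a type and less RNA per cell cannot be told apart.

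Most genes of the cascade differed little between the treatments. Of the 74 members, 59 had a mean of at least 1 TPM over the 4 libraries and were tested as log2(TPM + 1) with limma, together with all other genes past that minimum. The log2 change subtracts the mean of the vehicle libraries from that of the TGFbeta libraries, and a gene was called when its Benjamini-Hochberg adjusted p over all 15815 tested genes was under 0.05. With TGFbeta, 1 member rose, 4 fell and 54 were not called. That is 1.69% higher and 6.78% lower, beside 1.54% higher and 4.38% lower over all tested genes, so the shares lay near the background. At an unadjusted p under 0.05 there were 6 higher members (10.2%) and 16 lower (27.1%), beside 5.98% and 18.5% of all tested genes. With median scaling or quantile normalization the unadjusted counts were 6 higher and 7 lower members. Both directions together were then 13 of the 59 members, against 22 unscaled. Over all 15815 tested genes both directions together went from 3873 to 3490 and 3502. With either scaling the share of members at that p was thus no longer above that of all tested genes. After median scaling the members split into 2 higher and 3 lower calls, and all tested genes into 421 higher and 401 lower, where the unscaled TPM gave 244 and 692. After quantile normalization the members again gave 2 and 3, and all tested genes 333 and 401. The log2 change was below 0 for 40 members (67.8%) and for 64.8% of all tested genes. The median log2 change was -0.19 for the members and -0.13 for all tested genes. Median scaling moved that of all genes to 0.03, so log2 changes only slightly below 0 turn positive with it. A log2 change within 0.5 of 0 was found for 45 of the 59 members (76.3%) and for 76.9% of all tested genes. Both TGFbeta libraries lay above both vehicle libraries for 11 members (18.6%, against 15.5% of all tested genes). They lay below both for 29 members (49.2%, against 39.8%).

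The member that rose was Mapk6, and those that fell were Map3k1, Map3k8, Map4k3 and Dusp1. Each of these 5 calls was lost when any 1 of the 4 libraries was left out (limma adjusted p between 0.0854 and 0.269). Calls over all tested genes were likewise 0 higher and 0 lower without vehicle 1 or without vehicle 2. They numbered 64 higher and 107 lower without TGFbeta 1, and 65 higher and 138 lower without TGFbeta 2. The log2 changes of the 5 genes kept their sign, that of Map3k8 lying between -0.91 and -0.80 and that of Mapk6 between 0.62 and 0.82. When every gene above 0 was tested, 0 genes of the whole series were called, these 5 included, with the same log2 changes.

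**Figure D1:**
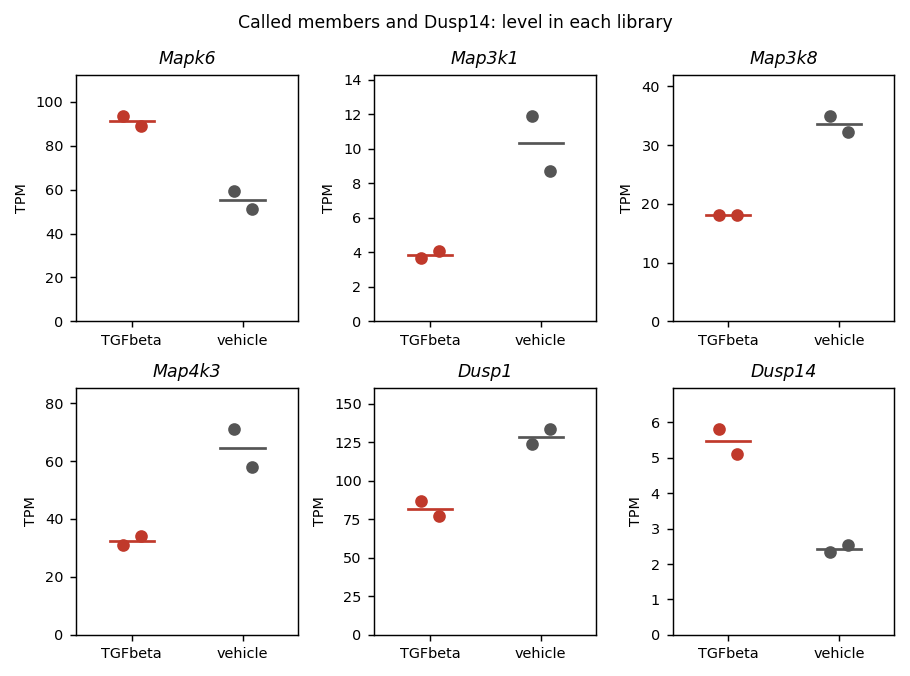
Level in TPM (y axis, from 0) of the 5 called members and Dusp14 in each library. Points are single libraries, short lines are the means of the 2 TGFbeta libraries (red, left) and the 2 vehicle libraries (grey, right), and in none of the 6 genes do the groups overlap.

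Mapk6 encodes ERK3, an atypical MAP kinase that lacks the usual tyrosine in its activation loop and signals with the kinase MK5. In GENCODE M21 (GRCm38) it is ENSMUSG00000042688.16 on chromosome 9, 75369062 to 75410005, minus strand. It had 93.6 and 89.0 TPM with TGFbeta, against 59.2 and 51.3 TPM with vehicle. The lowest TGFbeta library was above the highest vehicle library. The fold of the means was 1.65 and the log2 change 0.72 (SE 0.14, limma adjusted p = 0.0427). The Mapk6 call was also lost without an intensity trend in the fit (limma adjusted p = 0.0787, 0.0196 to 0.241 across settings). Mapkapk5, which encodes the ERK3 partner MK5, had 86.7 and 97.4 TPM with TGFbeta and 99.2 and 98.4 TPM with vehicle (log2 change -0.10, limma adjusted p = 0.681).

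Map3k1 encodes MEKK1, which acts upstream of JNK and ERK and also carries a ubiquitin ligase domain (ENSMUSG00000021754.17, chromosome 13, 111746428 to 111808993, minus strand). Its level was 3.66 and 4.10 TPM with TGFbeta and 11.9 and 8.71 TPM with vehicle. The vehicle libraries differed from each other by more than the TGFbeta libraries did, and both lay above them. With a fold of 0.376 and a log2 change of -1.20 (SE 0.21, limma adjusted p = 0.0353), Map3k1 had the largest decrease among the tested members. Across settings the change of Map3k1 lay between -1.41 and -0.78 on the log2 scale and its limma adjusted p between 0.0162 and 0.167.

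Map3k8 encodes TPL2, a kinase that activates MEK downstream of Toll-like and TNF receptors. It had 18.0 and 18.2 TPM with TGFbeta, against 35.0 and 32.2 TPM with vehicle, with narrow spread in both groups. The log2 change of Map3k8 was -0.86 (SE 0.14, limma adjusted p = 0.0301, 0.0119 to 0.181 across settings). Map4k3 encodes GLK, a MAP4K that acts in JNK and nutrient signalling (ENSMUSG00000024242.15, chromosome 17, 80580512 to 80728485, minus strand). Map4k3 had 30.9 and 34.0 TPM with TGFbeta and 71.1 and 58.0 TPM with vehicle. Both TGFbeta values lay well below both vehicle values, with a fold of 0.503 and a log2 change of -0.96 (SE 0.16, limma adjusted p = 0.0286). The Map4k3 call was lost without an intensity trend (limma adjusted p = 0.0523), and its adjusted p ran from 0.00917 to 0.155.

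Dusp1 encodes MKP-1, a nuclear phosphatase of p38, JNK and ERK that is an immediate early gene in many cells (ENSMUSG00000024190.7, chromosome 17, 26505590 to 26562128, minus strand). It had 86.5 and 76.9 TPM with TGFbeta and 123.5 and 133.5 TPM with vehicle. The groups were clear of each other, with a fold of 0.636 and a log2 change of -0.65 (SE 0.14). Its limma adjusted p of 0.0499 was at the threshold. The Dusp1 call was lost with a pseudocount of 0.1 (limma adjusted p = 0.0547), after quantile normalization (0.0816), after median scaling (0.126) and without an intensity trend (0.0909). Across settings its limma adjusted p ran from 0.0265 to 0.269, with a log2 change of -0.73 to -0.49.

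HuR binds AU-rich and U-rich stretches in the 3′ ends of messages, and Dusp1 is a textbook message with such a stretch. For 4 of the 5 called members, the 30 bases of the annotated 3′ untranslated region richest in the nonamer TTATTTATT, then in ATTTA, then in A and T are shown, because the study centres on HuR. They are in DNA letters, 5′ to 3′, with ATTTA in capitals, from GENCODE M21 transcripts.
Dusp1: tcatgggagctggtccttATTTATTTAaca
Mapk6: ttATTTAtttttagcaaatcagtatatttt
Map3k1: actaaagaacagaagcataaATTTAttttt
Map4k3: taaattgtgATTTAtgcttcATTTAtttta
The Dusp1 region of 690 bases held 4 ATTTA motifs and that of Map4k3, with 1336 bases, held 8. Mapk6 had 4 in 1150 bases and Map3k1 had 4 in 2472 bases. The nonamer TTATTTATT was present in Dusp1 and Mapk6 and not in Map3k1 or Map4k3. At least 1 ATTTA was found for 43 of the 59 tested members (72.9%), against 69.6% of 13504 tested genes with a 3′ untranslated region. Lengths differ between genes. Pooled over all bases there were 1.84 ATTTA motifs per kb in the members and 1.84 in all tested genes, so neither measure set the family apart. The nonamer was present in 6 members (10.2%) and in 8.22% of all. These matches are descriptions of sequence and not binding sites.

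The Dusp1 promoter is shown because Dusp1 is the called member with the best known inducible promoter (RefSeq start, GRCm38.p6, chr17:26508423-26508722, minus strand, 250 bases before to 50 after the start). Capitals mark the cyclic AMP response element TGACGTCA and, on the other strand, the Smad box repeat CAGACA.
Dusp1: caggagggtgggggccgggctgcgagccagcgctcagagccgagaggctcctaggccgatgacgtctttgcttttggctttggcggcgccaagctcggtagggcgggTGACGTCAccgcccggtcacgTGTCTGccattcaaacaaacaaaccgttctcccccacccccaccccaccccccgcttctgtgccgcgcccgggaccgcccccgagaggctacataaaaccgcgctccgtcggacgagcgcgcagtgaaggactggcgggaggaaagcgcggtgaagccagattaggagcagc
Searched on both strands, TGACGTCA occurred in 3 of 72 promoters of 57 members (4.17%), against 1.79% of 32851 promoters. They belong to Dusp1, Dusp8 and Mapk10, the last of which was below the minimum level and not tested. Both sides count promoters whether or not the gene was tested, and 1 gene can have more than 1 promoter. CAGACA occurred in 11.1% of the member promoters and 21.0% of all. AP-1 sites (TGANTCA) occurred in 5.56% and 7.81%, and the ETS core CGGAAG in 15.3% and 16.9%. The serum response element core, the CArG box, occurred in 1 member promoter, that of Dusp5 (1.39%, against 1.63% of all). The TATA box TATAAA occurred in 4.17% of the member promoters and 13.6% of all, and the CCAAT box in 36.1% and 37.4%.

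**Figure D2:**
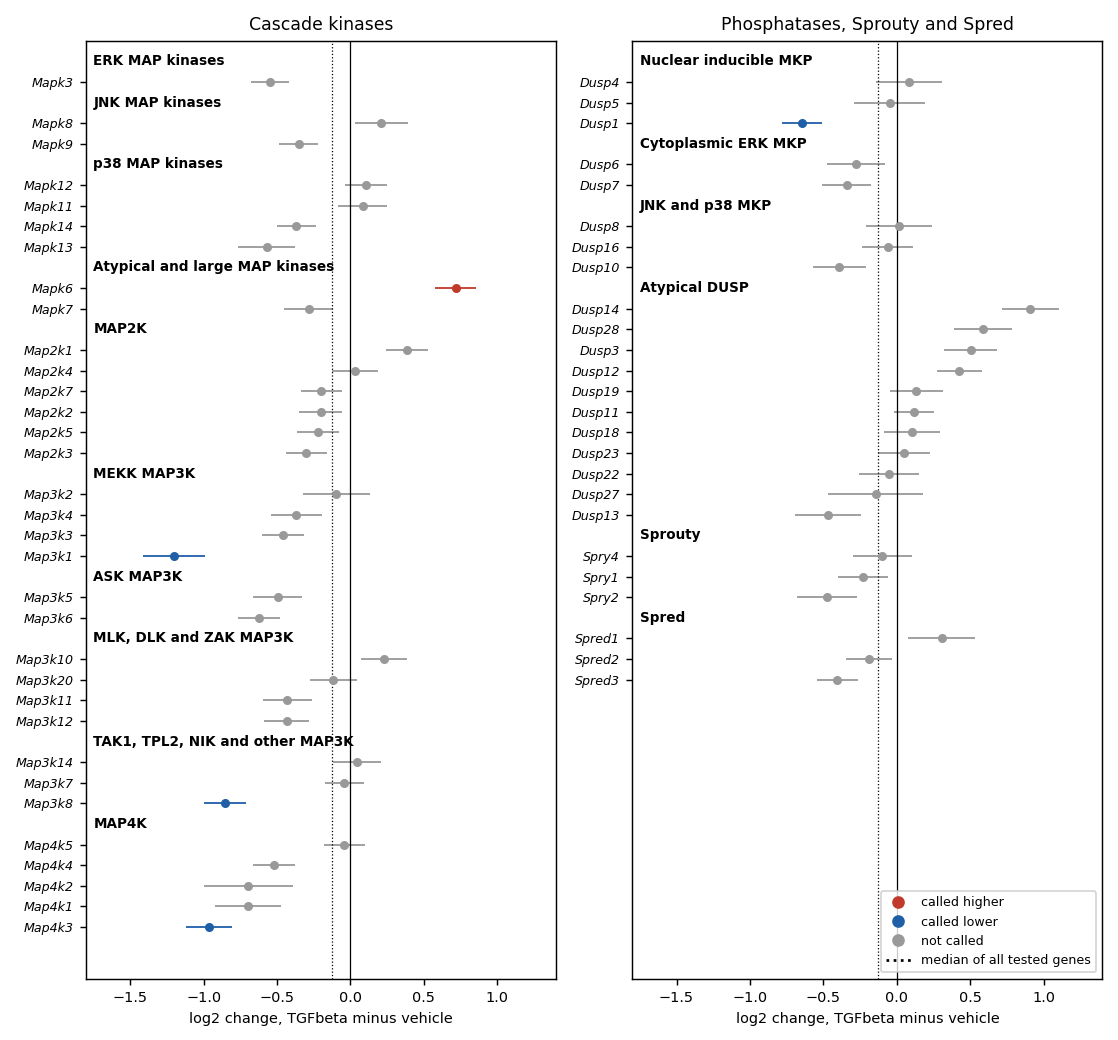
Log2 change, TGFbeta minus vehicle, with its standard error (x axis) for the tested members other than 1 kinase, in the left panel the kinases and in the right panel the phosphatases, Sproutys and Spreds. Red is called higher, blue called lower and grey not called, and the dotted line is the median of all tested genes at -0.13.

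Among the terminal MAP kinases, 1 of 10 tested members rose, Mapk6, and 0 fell, beside 1.54% and 4.38% of all tested genes. At an unadjusted p under 0.05, 4 were lower and 1 higher (limma), beside 18.5% and 5.98% of all tested genes. Mapk3, which encodes ERK1, was the most abundant of these MAP kinases. It had 148 and 134 TPM with TGFbeta, against 206 and 208 TPM with vehicle. The groups did not overlap, but the log2 change of -0.55 (SE 0.13) missed the threshold (limma adjusted p = 0.0644), and among the settings passed only with the minimum raised to a mean of 5 TPM (0.0420, elsewhere up to 0.288).

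Of the p38 genes, Mapk14 (p38 alpha) led with 49.4 and 49.1 TPM in TGFbeta libraries and 66.6 and 61.3 TPM in vehicle libraries. The groups were separate, but the log2 change was small (-0.37, limma adjusted p = 0.156). Mapk13 (p38 delta) was lower in level, at 3.12 and 3.33 TPM with TGFbeta and 4.98 and 5.58 TPM with vehicle, again without overlap (log2 change -0.57, limma adjusted p = 0.140). Mapk11 (p38 beta) and Mapk12 (p38 gamma) had log2 changes of 0.08 and 0.11. Of the JNK genes, Mapk9 (JNK2) had 36.9 and 35.9 TPM with TGFbeta and 48.2 and 45.4 TPM with vehicle (log2 change -0.35, limma adjusted p = 0.174). Mapk8 (JNK1) had 15.6 and 20.4 TPM with TGFbeta and 15.4 and 15.2 TPM with vehicle. Mapk10 (JNK3), a gene mainly of neurons and heart muscle, lay between 0.482 and 0.723 TPM in the 4 libraries. Mapk7, which encodes the large kinase ERK5, had 49.4 and 43.0 TPM with TGFbeta and 50.2 and 63.2 TPM with vehicle. Its exons overlap those of Mfap4 on the opposite strand over 2.03% of their bases, and whether the counting used strand is not stated.

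The MAP2K level, where most MAP kinases have their own activators, had 0 calls among 6 tested members. Over all tested genes 1.54% were called higher and 4.38% lower. At an unadjusted p under 0.05, 1 member of the class was higher (limma), beside 5.98% of all tested genes. Map2k2 (MEK2) was the most abundant of the class, at 164 and 134 TPM with TGFbeta and 168 and 174 TPM with vehicle. Map2k1 (MEK1), with 106 and 101 TPM with TGFbeta and 85.7 and 72.9 TPM with vehicle, showed no overlap of the groups. Its log2 change of 0.38 was the largest of the class (SE 0.14, limma adjusted p = 0.167). MEK1 and MEK2 both activate ERK, and their values thus lay on opposite sides of 0 (log2 change of Map2k2 -0.20, limma adjusted p = 0.457). The difference between the genes was not tested. Of the p38 activators, Map2k3 had 102 and 86.9 TPM with TGFbeta and 116 and 116 TPM with vehicle, whereas Map2k6 had 0.474 and 0.145 TPM with TGFbeta and 0.884 and 0.666 TPM with vehicle.

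Of 13 tested genes of the MAP3K class, which receives signals from receptors and stress, 2 fell, Map3k1 and Map3k8, and 0 rose (limma, 7 lower and 0 higher at an unadjusted p under 0.05). Both TGFbeta libraries were below both vehicle libraries for 8 of them and above for 1. Over all tested genes those shares were 39.8% and 15.5%, and 18.5% were lower at an unadjusted p under 0.05. Calls over all tested genes were 4.38% lower and 1.54% higher. These class counts are from unscaled TPM, and over all members the lower count at that p went from 16 to 7 with either scaling. The median log2 change of the class was -0.43, against -0.13 for all tested genes. With median scaling these medians were -0.28 and 0.03, and with quantile normalization -0.29 and 0.02. Map3k7, which encodes TAK1, had 52.9 and 49.2 TPM with TGFbeta, against 54.1 and 51.0 TPM with vehicle. These groups overlapped, and the log2 change of -0.04 (SE 0.13, limma adjusted p = 0.881) had the opposite sign with median scaling (0.11) and quantile normalization (0.09).

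Map3k6 (ASK2), of the apoptosis signal-regulating kinases, had 28.6 and 25.4 TPM with TGFbeta and 43.6 and 40.7 TPM with vehicle. Both TGFbeta values were lower, and the log2 change of -0.62 (SE 0.14, limma adjusted p = 0.0615) passed only with the minimum raised to a mean of 5 TPM (0.0359, elsewhere up to 0.252). Its relative Map3k5 (ASK1) had 13.4 and 13.2 TPM with TGFbeta and 21.2 and 17.3 TPM with vehicle (log2 change -0.496, limma adjusted p = 0.144). Map3k3 (MEKK3), which activates ERK5 through MEK5, had 35.3 and 31.5 TPM with TGFbeta and 48.3 and 44.4 TPM with vehicle (log2 change -0.46, limma adjusted p = 0.116). Map3k12, which encodes the dual leucine zipper kinase DLK, had 22.8 and 19.6 TPM with TGFbeta and 27.8 and 30.1 TPM with vehicle (log2 change -0.44, limma adjusted p = 0.156). Exons of the opposite-strand gene Pcbp2 cover 17.5% of its exonic bases. Map3k10 (MLK2) had the highest level of the class, 72.2 and 57.3 TPM with TGFbeta and 53.1 and 56.4 TPM with vehicle, and a log2 change of 0.23 (limma adjusted p = 0.435). The opposite-strand gene Ttc9b shares 14.8% of the exonic bases of Map3k10.

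In the MAP4K class, Ste20-like kinases that feed mainly into JNK, 1 of 5 tested members fell, Map4k3, and 0 rose (limma). Those lower at an unadjusted p under 0.05 were Map4k3, Map4k4 and Map4k1, the last of which reached the minimum level only in vehicle libraries. Over all tested genes 4.38% were called lower and 1.54% higher, and 18.5% were lower at that unadjusted p. The median log2 change of the class was -0.69, against -0.13 for all tested genes. With median scaling these medians were -0.54 and 0.03. The class median is the value of Map4k2 and includes Map4k1. Without Map4k1 the unscaled median would lie between the values of Map4k2 (-0.69) and Map4k4 (-0.52). The summed level of the class was 374 and 338 TPM with TGFbeta and 557 and 482 TPM with vehicle. Map4k4, a kinase known for cell migration and stress signalling, made up 68.0% of it and was the most abundant of all 74 members. It had 249.6 and 238 TPM with TGFbeta and 382 and 320.5 TPM with vehicle, with no overlap. The log2 change was -0.52 (SE 0.15) and was not called at any setting (limma adjusted p = 0.0957, range 0.0654 to 0.324). Map4k2 showed a split between the TGFbeta libraries, with 51.6 and 26.2 TPM, against 58.3 and 62.2 TPM with vehicle (log2 change -0.69, SE 0.30, limma adjusted p = 0.225). Map4k1, a kinase of blood cells, had 0.675 and 0.754 TPM with TGFbeta and 1.63 and 1.94 TPM with vehicle, so its being tested rested on the vehicle libraries and its lower level is given as a description (limma adjusted p = 0.129). Map4k5 had 41.1 and 38.9 TPM with TGFbeta and 43.4 and 39.0 TPM with vehicle.

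Of the dual-specificity phosphatases that act on MAP kinases, 1 of 8 tested fell, Dusp1, and 0 rose (limma, 1 lower and 0 higher at an unadjusted p under 0.05). Over all tested genes 4.38% fell and 1.54% rose, and 18.5% and 5.98% were lower and higher at that unadjusted p. Dusp1 made up 90.8% of the level of the nuclear inducible group. Its relative Dusp4 (MKP-2) had 10.5 and 7.94 TPM with TGFbeta and 10.0 and 7.33 TPM with vehicle, so the libraries within a group differed more than the groups. Dusp5, which acts on nuclear ERK, had 1.69 and 1.10 TPM with TGFbeta and 1.36 and 1.57 TPM with vehicle. An antisense gene, AC137853.2, shares 22.1% of the exonic bases of Dusp5. Dusp2 lay between 0.0460 and 0.408 TPM in the 4 libraries.

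Dusp6, the cytoplasmic ERK phosphatase whose transcript is a common readout of ERK activity, had 6.35 and 4.94 TPM with TGFbeta and 6.79 and 7.26 TPM with vehicle. The TGFbeta values were both lower, by less than the test could separate (log2 change -0.28, SE 0.20, limma adjusted p = 0.440). Dusp7, its more abundant relative, had 23.6 and 18.7 TPM with TGFbeta and 26.4 and 27.4 TPM with vehicle (log2 change -0.34, limma adjusted p = 0.273). Of the phosphatases that prefer JNK and p38, Dusp10 (MKP-5) had 5.23 and 5.09 TPM with TGFbeta and 6.71 and 7.49 TPM with vehicle (log2 change -0.39, limma adjusted p = 0.247). Dusp16 (MKP-7) had 13.3 and 12.4 TPM with TGFbeta and 14.8 and 12.2 TPM with vehicle, with overlapping groups and a log2 change of -0.06 that was 0.09 with either scaling. Dusp8 had 8.01 and 5.33 TPM with TGFbeta, on both sides of the vehicle values of 6.34 and 6.61 TPM.

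The atypical DUSPs lack the kinase-binding domain of the phosphatases above, and many act on other substrates. Of 11 tested, 0 were called (limma, 4 higher and 0 lower at an unadjusted p under 0.05). Over all tested genes 5.98% were higher and 18.5% lower at that unadjusted p, and 1.54% were called higher and 4.38% lower. Dusp14 (MKP-6), a small phosphatase reported to act on TAK1 and its adaptor TAB1, had the largest increase among the tested members. It had 5.82 and 5.12 TPM with TGFbeta and 2.33 and 2.55 TPM with vehicle. The groups were far apart for their spread, with a fold of 2.24 and a log2 change of 0.91 (SE 0.20), yet the limma adjusted p of 0.0536 missed the threshold. It passed with a pseudocount of 5 (0.0489), after quantile normalization (0.0403) and median scaling (0.0395), without an intensity trend (0.0471) and in a robust fit (0.0392), and elsewhere ran up to 0.230.

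The other atypical members at an unadjusted p under 0.05 were Dusp3, Dusp12 and Dusp28. Dusp3 (VHR), a phosphatase of ERK and JNK, had 46.1 and 43.8 TPM with TGFbeta and 36.5 and 26.9 TPM with vehicle (limma adjusted p = 0.158), and shares 12.9% of its exonic bases with the antisense gene Gm20659. Dusp12 had 24.5 and 21.9 TPM with TGFbeta and 17.6 and 16.4 TPM with vehicle (limma adjusted p = 0.159). However, 32.5% of its exonic bases are shared with the opposite-strand gene Gm9929 and 17.3% with Gm26620, also on the opposite strand. Dusp28 had 4.24 and 4.40 TPM with TGFbeta and 2.73 and 2.35 TPM with vehicle (limma adjusted p = 0.140). In all 3 genes the TGFbeta libraries lay above the vehicle libraries. Dusp11, an RNA phosphatase, was the most abundant of the group at 101 and 108 TPM with TGFbeta and 103 and 89.9 TPM with vehicle, with overlap.

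**Figure D3:**
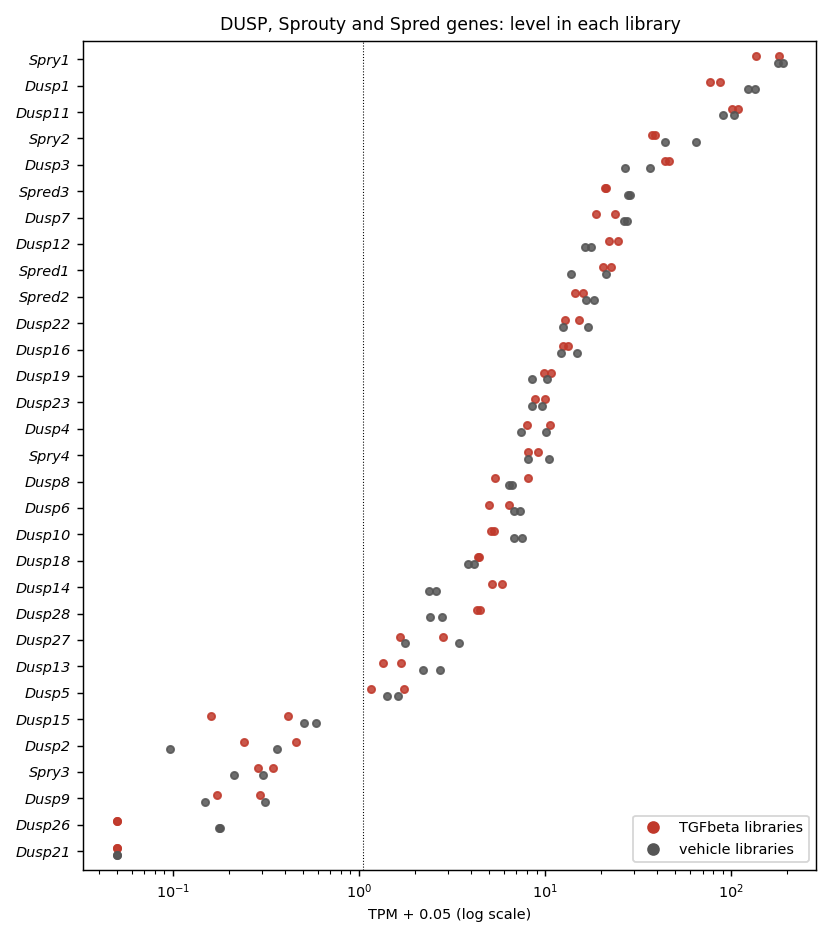
Level of the 31 DUSP, Sprouty and Spred genes in each library, as TPM + 0.05 on a log axis, ordered by mean level, with TGFbeta libraries in red and vehicle libraries in grey. The dotted line marks 1 TPM, Spry1 and Dusp1 are at the top, and for most genes red and grey points overlap or lie close together.

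Sprouty and Spred genes had 0 calls among 6 tested (limma, 1 lower and 0 higher at an unadjusted p under 0.05). Those unadjusted shares were 18.5% and 5.98% over all tested genes, of which 4.38% were called lower and 1.54% higher. Spry1 was the most abundant feedback gene of all. It had 180.3 and 135 TPM with TGFbeta, against 189.6 and 177 TPM with vehicle, and 1 TGFbeta library lay within the vehicle range (log2 change -0.23, SE 0.17, limma adjusted p = 0.467). The uncharacterised opposite-strand entry Gm42922 shares 24.4% of its exonic bases. Spry2 had 38.8 and 37.5 TPM with TGFbeta and 64.5 and 44.1 TPM with vehicle. The vehicle libraries were far apart, and the log2 change of -0.475 did not pass (SE 0.20, limma adjusted p = 0.216). Spry4, a common readout of growth factor signals to ERK, had 9.07 and 7.99 TPM with TGFbeta and 10.5 and 8.03 TPM with vehicle.

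Spred proteins bind the Ras inhibitor neurofibromin. Spred3 had 20.8 and 21.3 TPM with TGFbeta and 28.5 and 27.9 TPM with vehicle, with close replicates (log2 change -0.40, SE 0.14, limma adjusted p = 0.147). Spred1 had 20.3 and 22.4 TPM with TGFbeta and 21.2 and 13.7 TPM with vehicle, so the groups overlapped through vehicle 1. Spred2 had 15.8 and 14.4 TPM with TGFbeta and 18.1 and 16.6 TPM with vehicle (log2 change -0.19, limma adjusted p = 0.515).

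Below the minimum mean of 1 TPM lay 15 members, which were not tested. They were Mapk4, Mapk10, Mapk15, Map2k6, Map3k9, Map3k13, Map3k15, Map3k19, Map3k21, Dusp2, Dusp9, Dusp15, Dusp21, Dusp26 and Spry3. The highest of them by mean was Map3k15 at 0.985 TPM. Dusp21 was listed at 0 in all 4 libraries, and Dusp26 at 0 in both TGFbeta libraries and at 0.127 and 0.129 TPM with vehicle. With depth unknown, a listing at 0 does not show that a transcript was absent.

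Genes that work with the cascade but carry other names were read from 5 lists with 94 genes, of which 88 were tested. With TGFbeta, 6 rose and 5 fell (6.82% and 5.68%, against 1.54% and 4.38% of all tested genes). These lists were assembled with earlier results of these data known. None of the 11 calls held without vehicle 1 or without vehicle 2, where 0 of all tested genes were called. The log2 change of Ksr1 was then -1.997 and -1.865, and that of Lif 1.51 and 1.55. Without TGFbeta 1 the calls were 2 higher and 1 lower, and without TGFbeta 2 they were 2 and 3.

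Of 28 tested genes for Ras, Raf and adaptors, 3 fell and 0 rose, beside 4.38% and 1.54% of all tested genes. Ksr1, which encodes a scaffold that holds Raf, MEK and ERK together, had 15.8 and 15.4 TPM with TGFbeta, against 59.4 and 65.2 TPM with vehicle. The groups were far apart for their spread, and the log2 change of Ksr1 of -1.93 (SE 0.14, limma adjusted p = 0.00532) was the largest decrease in the 5 lists. Rasgrp2, a calcium-responsive activator of Rap, had 16.0 and 15.3 TPM with TGFbeta and 51.4 and 34.1 TPM with vehicle (log2 change -1.37, limma adjusted p = 0.0268). Rasa3, which encodes an inactivator of Ras and Rap, had 73.4 and 86.1 TPM with TGFbeta and 171 and 160.2 TPM with vehicle (log2 change -1.05, limma adjusted p = 0.0191).

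Of 15 tested scaffolds and activators of JNK and p38, 1 rose and 1 fell, beside 1.54% and 4.38% of all tested genes. Gadd45b, an activator of the MAP3K MEKK4 and a known target of TGF-beta, had 257 and 255 TPM with TGFbeta and 112 and 117 TPM with vehicle, with a log2 change of 1.16 (SE 0.12, limma adjusted p = 0.0107). Mapk8ip1, which encodes the JNK scaffold JIP1, had 11.6 and 8.20 TPM with TGFbeta and 23.3 and 28.2 TPM with vehicle (log2 change -1.31, limma adjusted p = 0.0275). MEKK4 itself, encoded by Map3k4, had 8.81 and 7.59 TPM with TGFbeta and 11.1 and 10.6 TPM with vehicle and was not called (limma adjusted p = 0.254).

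Of 21 tested output genes of ERK, 5 rose and 1 fell, beside 1.54% and 4.38% of all tested genes. This list too was assembled with earlier results of these data known. Lif, which encodes a cytokine of the interleukin 6 family, had 77.8 and 65.1 TPM with TGFbeta and 23.7 and 24.3 TPM with vehicle (log2 change 1.53, limma adjusted p = 0.00962). Egr2, an immediate early transcription factor gene, had 8.40 and 5.29 TPM with TGFbeta and 1.87 and 1.21 TPM with vehicle (log2 change 1.61, limma adjusted p = 0.0325). Myc, a growth regulator, had 46.2 and 39.1 TPM with TGFbeta and 22.1 and 17.8 TPM with vehicle (log2 change 1.06, limma adjusted p = 0.0284). Fosl1, an AP-1 subunit gene, and Ier3 also rose, with log2 changes of 0.86 and 0.74 (limma adjusted p = 0.0470 and 0.0328).

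Ccnd1, which encodes cyclin D1 and belongs to the same list, fell. It had 8.70 and 11.3 TPM with TGFbeta and 30.5 and 38.8 TPM with vehicle (log2 change -1.70, SE 0.20, limma adjusted p = 0.0129). The list thus held genes that went both ways. Its median log2 change was 0.19, against -0.13 for all tested genes, in a list assembled with earlier results known. Both TGFbeta libraries lay above both vehicle libraries for 12 of its 21 tested genes and below for 4. Those shares were 15.5% and 39.8% over all tested genes. On this list 15 genes were not called, among them Etv5, Phlda1, Egr1 and Fos. Their log2 changes were -0.02, -0.28, 0.50 and -0.45 (limma adjusted p = 0.964, 0.452, 0.201 and 0.276), beside -0.28 for Dusp6 and -0.10 for Spry4 in the feedback families.

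**Figure D4:**
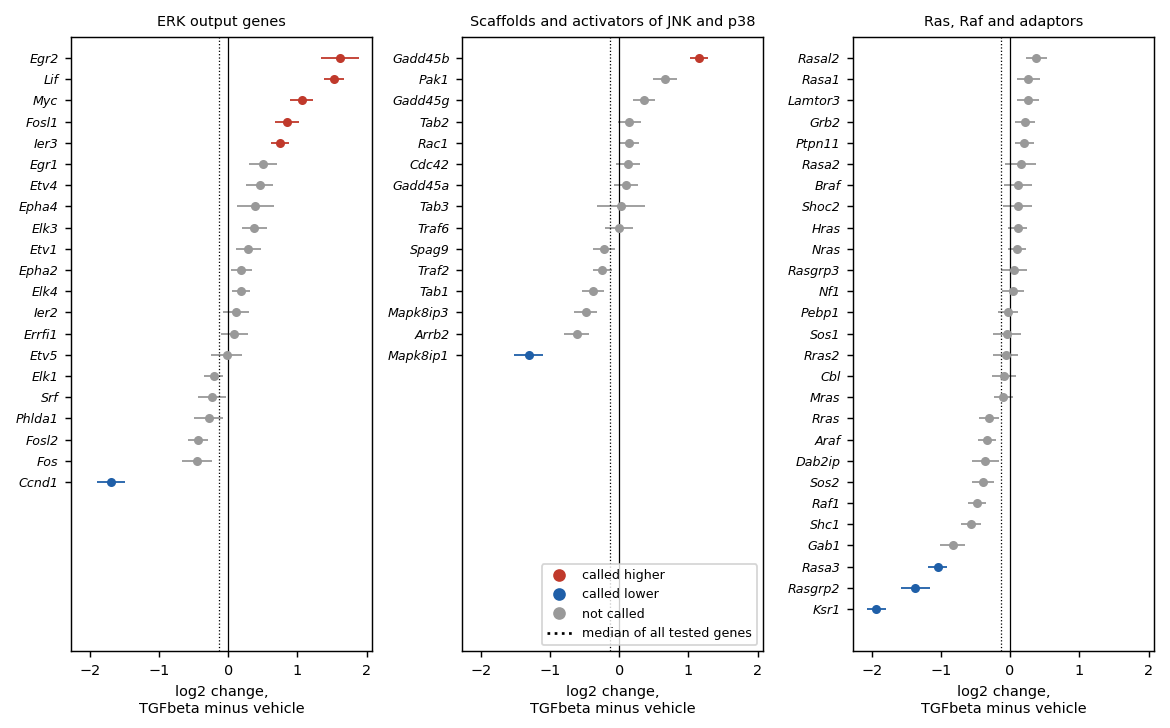
Log2 change, TGFbeta minus vehicle, with its standard error (x axis) for tested genes, 1 left out, of the ERK output, JNK and p38 scaffold, and Ras and Raf lists. Red is called higher, blue called lower and grey not called, and the dotted line is the median of all tested genes at -0.13.

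Kinases downstream of MAP kinases had 0 calls among 10 tested (limma, 1 higher and 2 lower at an unadjusted p under 0.05). Mknk2, which encodes a kinase of the translation factor eIF4E, came closest, with 49.7 and 36.4 TPM with TGFbeta and 73.9 and 92.2 TPM with vehicle (log2 change -0.94, limma adjusted p = 0.0509). It was called with a pseudocount of 5, in the robust fit and with the minimum raised to a mean of 5 TPM. AP-1 and stress kinase output genes had 0 calls among 14 tested (limma, 1 higher and 1 lower at an unadjusted p under 0.05). Beside both lists, the unadjusted shares over all tested genes were 5.98% higher and 18.5% lower, and the called shares 1.54% and 4.38%. Jun, the central AP-1 gene, had 14.1 and 13.4 TPM with TGFbeta and 18.9 and 20.5 TPM with vehicle (log2 change -0.49, limma adjusted p = 0.120), and Ddit3 had 106 and 108 TPM with TGFbeta and 85.3 and 84.1 TPM with vehicle (log2 change 0.335, limma adjusted p = 0.168).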

How the data were processed

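Values were deposited by the authors as TPM, 1 file per library and 1 value per gene symbol, per the file headers. For the aligner, quantifier, build, annotation and use of strand, nothing is stated in the sources used. TPM sums to 1000000 in each library and keeps no read numbers; the depth is therefore unknown and counting error cannot be given. Between 20945 and 21671 genes per library lay above 0.

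Genes with a mean of at least 1 TPM over the 4 libraries were compared as log2(TPM + 1) with limma 3.58.1 in R 4.3.3 (lmFit and two-sided eBayes, the prior variance following an intensity trend). Treatment was the single covariate, and p-values were adjusted by Benjamini and Hochberg over every tested gene. Because of the pseudocount, log2 changes understate those of low genes. Means are over 2 libraries. Folds are ratios of mean TPM. The exact permutation test of 1 gene has a smallest p of 0.333 and was not used. The fit was tested on simulated data with independent errors and no shift common to all genes. That test checks that the fit recovers known changes and does not bear on how firm the calls here are.

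Members follow a symbol rule. They, the role groups and the partner lists were chosen with earlier results of these data known. Genes named by rule were the called members, the most abundant member and the tested member with the largest change of each role group, and up to 4 called genes per partner list, those with the largest change. Other genes were named after their values were seen. Alternatives were pseudocounts of 0.1 and 5, no filter, a minimum mean of 5 TPM, median scaling, quantile normalization, a robust fit, a fit with no trend, a replicate block, and leaving out each library.

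Positions and 3′ untranslated regions come from GENCODE M21 (GRCm38), where 73 of 74 symbols matched. Promoters come from RefSeq (GRCm38.p6), with 57 members matched. Values of 1 member and 1 partner gene are not reported here, though both stayed in the fits and counts.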

Additional observations from a re-analysis of the deposited data

How the results depend on the processing

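Members called higher numbered 1 and called lower 4. The higher count was 2 with a pseudocount of 5, after quantile normalization, after median scaling and in the robust fit, the added gene being Dusp14 each time. With no filter it was 0 (limma, 6 at an unadjusted p under 0.05). The lower count was 2 without an intensity trend and 0 with no filter (limma, 17 at an unadjusted p under 0.05). Both counts were 0 without any 1 of the libraries (limma, 10 to 17 members at an unadjusted p under 0.05 in either direction). Over all tested genes the calls were then 0 without either vehicle library, 171 without TGFbeta 1 and 203 without TGFbeta 2, against 936 with all libraries. In these fits the lone library of a group is taken to vary as the other group does. With no filter 0 of all genes were called (4348 at an unadjusted p under 0.05). The members' median log2 change was -0.040 after quantile normalization and -0.0334 after median scaling, beside 0.02 and 0.03 for all tested genes, and ran from -0.25 to -0.13 without 1 library. Partner genes called higher numbered 6 and called lower 5. With no filter both counts were 0 (limma, 11 and 18 at an unadjusted p under 0.05), and with the minimum raised to a mean of 5 TPM the lower count was 8. Without 1 library the higher count ran from 0 to 2 and the lower count from 0 to 3. Whether shared replicate numbers pair the libraries is not stated. The differences between replicates 1 and 2 in the 2 groups correlated at -0.0539 across tested genes. With 2 libraries per group this cannot show whether libraries of the same number shared a culture or animal. With a replicate block, 0 members were called higher and 2 lower (limma, 4 and 12 at an unadjusted p under 0.05), and partners gave 4 and 5. The members not called with it were Mapk6, Map3k8 and Dusp1 (limma adjusted p = 0.0783, 0.0619 and 0.105), and over all tested genes the calls numbered 631. Among genes named by rule, Dusp16 changed sign after quantile normalization (0.0909) and median scaling (0.0927) and ran from -0.194 to 0.0707 without 1 library. Map3k7 changed sign after quantile normalization (0.088) and median scaling (0.113) and ran from -0.0929 to 0.00937 without 1 library, with 0.000645 without vehicle 1. Neither was called at any setting run, and no other gene named by rule changed sign. The cause of these shifts was not tested. Without read numbers, the level under which TPM cannot separate groups is unknown.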
